A study of Mus musculus with 12 samples.

Results

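The genes described here encode the machinery that copies DNA, measured in germ cells of the fetal and newborn mouse testis. They are 48 genes, fixed by symbol and found by Ensembl identifier among the 55487 genes of the deposited RNA sequencing table. The set covers 6 subunits of the origin recognition complex, 3 genes of licensing (Cdc6, Cdt1 and the inhibitor Gmnn), 6 helicase subunits, 8 helicase activators, the sliding clamp with 5 clamp loader subunits and 9 polymerase and primase subunits. It also holds 3 single-strand binding proteins, 2 enzymes that join Okazaki fragments, 3 enzymes of nucleotide supply and 2 chromatin assembly subunits. All 48 genes were among the 22384 that passed a filter that asked for 10 or more normalized counts in 3 or more libraries. A normalized count is the number of reads of a gene divided by 1 size factor of its library.

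The 12 libraries came from gonocytes, the male germ cells before spermatogonia form, isolated from Mvh-Venus transgenic mice, in which a fluorescent protein marks the germ line. There were 3 libraries at each of E13.5 and E16.5 (embryonic days), P0 (birth) and P3 (the third day after birth). The series concerns Morc1, a gene of germ cells. The titles call every library WT (wild type), but the genotype tag reads Morc1 (+/-) at E13.5 and P0 and Morc1 (-/-) at E16.5 and P3. Morc1 stood at 1621 to 1830 normalized counts at E13.5, 28328 to 32917 at E16.5, 7280 to 7708 at P0 and 10584 to 11129 at P3. By normalized counts the libraries tagged (-/-) were thus above those tagged (+/-). In CPM, reads scaled to equal library totals, Morc1 was at 29.8 to 34.6 at E13.5, 784 to 861 at E16.5, 310 to 317 at P0 and 248 to 265 at P3, so on that scale P0 was above P3. The labels used here do not say which part of the gene the mutant allele lacks. In each comparison of consecutive stages, and in P3 against E13.5, the stage and the genotype tag cannot be told apart. P0 against E13.5 and P3 against E16.5 each stay within 1 tag. Nothing in the labels says that libraries of a stage came from separate animals, so p-values measure the spread between these libraries, which may be technical.

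DNA replication begins at origins, where the origin recognition complex, Cdc6 and Cdt1 load the ring-shaped MCM helicase, a step called licensing, and Geminin (Gmnn) blocks Cdt1 once copying has started. The kinase of Cdc7 and Dbf4, with Mcm10, Cdc45 and the GINS complex, then turns the helicase on, and polymerases held by the clamp Pcna copy both strands. Male germ cells of the mouse stop dividing in the fetal testis, stay in G0 or G1 arrest until birth and take up division again in the first days after it.

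Depth was 40946616 to 51533747 reads per library. The P0 libraries stood apart from the rest: their size factors were 1.84 to 2.07, against 0.919 to 1.26 in the other 9, and 34207 to 34857 genes had a read. At E13.5, E16.5 and P3 the latter range was 22678 to 22774, 29291 to 30776 and 25749 to 26285. The summed level of 9 germ cell markers was 338434 to 353214 normalized counts at E13.5, 257254 to 281299 at E16.5, 134967 to 143419 at P0 and 229120 to 247199 at P3, with all 9 above 3 reads at each stage. The sum mixes markers that moved in opposite directions. From E13.5 to P0 the mean of Mael went from 14374 to 44978 and that of Tdrd1 from 2514 to 7634. The other germ cell markers were lower at P0, Dppa3 going from 79747 to 182. The 7 Sertoli markers summed to 2373 to 3439 at E13.5, 2007 to 3622 at E16.5, 3974 to 7914 at P0 and 2280 to 2986 at P3, where Cldn11 was at or under 3 reads at E13.5 and P3. The 5 Leydig markers summed to 571 to 723, 608 to 7681, 1078 to 6106 and 179 to 267 at the same stages, and Insl3 was at or under 3 reads at E13.5 and P3. The 3 mast cell markers Cpa3, Mcpt4 and Tpsb2 were at 0 at E13.5, and summed to 17.2 to 27.7 at E16.5, 900 to 2118 at P0 and 0 to 229 at P3. The 6 stroma markers went from 125 to 156 at E13.5 to 1203 to 1564 at E16.5 and 2357 to 2467 at P0, and were at 1408 to 1604 at P3. The 4 macrophage markers stood at 38.1 to 71.8, 974 to 1156, 92.2 to 215 and 254 to 290 in the same order. Most of the E16.5 sum was Cd68, whose mean went from 938 at E16.5 to 38.8 at P0. Between these stages Csf1r went from 57.3 to 39.4, Adgre1 from 47.5 to 72.7 and C1qa from 2.59 to 9.75. The stroma sum was thus higher at E16.5, P0 and P3 than at E13.5. Tagln was at or under 3 reads at E13.5 and E16.5, and Adgre1 at E13.5 and P3. The 4 endothelial markers summed to 4343 to 5085 at E13.5, nearly all of it Pecam1, which fetal germ cells also express, with Tie1 at 0, and to at most 1455 later. The part of other cells in the results on replication genes was not tested. In bulk RNA, fewer cells of a type and less RNA per cell cannot be told apart.

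Many replication genes are known targets of E2F factors, so the promoters of the set were searched for E2F words. The windows run from 250 bases before to 50 after the RefSeq start site on GRCm38.p6, and 40 of the 48 genes have one. The words were TTTCCCGC, TTTGGCGC, TTTGCCGC and TTTCGCGC on both strands, which can overlap each other, and CCAAT on both strands. At least 1 E2F word stood in 15 of the 40 genes (37.5%), against 2.60% of 27025 genes of the promoter table and 3.98% of 13146 protein-coding genes tested here. CCAAT stood in 23 of the 40 (57.5%), against 41.1% and 42.1%. The 160 bases upstream of 4 genes follow, read on the gene's strand, with E2F and CCAAT words in capitals. They were picked to show a helicase gene with overlapping E2F words (Mcm5, chr8:75109349-75109508, plus strand), one with several (Mcm6, chr1:128359706-128359865, minus strand) and one with none in this stretch (Mcm2, chr6:88898781-88898940, minus strand). The last is the polymerase gene Pola1 (chrX:93632156-93632315, minus strand), whose P3 level was the lowest of the 48 genes relative to E13.5. No base of these stretches lies in an exon of GENCODE M21.
Mcm5: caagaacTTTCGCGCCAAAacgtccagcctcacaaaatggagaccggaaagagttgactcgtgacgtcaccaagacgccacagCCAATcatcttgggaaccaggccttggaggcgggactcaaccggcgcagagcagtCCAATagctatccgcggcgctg
Mcm6: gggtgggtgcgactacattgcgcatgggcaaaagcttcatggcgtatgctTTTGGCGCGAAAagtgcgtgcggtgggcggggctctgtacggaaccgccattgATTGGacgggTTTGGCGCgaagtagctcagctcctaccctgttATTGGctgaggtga
Mcm2: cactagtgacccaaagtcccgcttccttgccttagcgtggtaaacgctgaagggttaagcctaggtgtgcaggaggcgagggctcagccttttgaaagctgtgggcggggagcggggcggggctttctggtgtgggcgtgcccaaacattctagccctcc
Pola1: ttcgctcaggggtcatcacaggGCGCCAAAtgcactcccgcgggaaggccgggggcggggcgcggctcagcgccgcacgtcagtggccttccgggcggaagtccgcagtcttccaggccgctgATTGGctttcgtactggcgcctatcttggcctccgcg
A match is a description and not a shown binding site. The 15 genes with an E2F word had a median log2 fold change of -1.51 at E16.5 against E13.5, and of 2.19 from P0 to P3. The 25 genes without one had medians of -1.72 and 2.18, so the medians of both sets lay close together.

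Between E13.5 and E16.5 transcripts of nearly the whole machinery fell. By limma at a Benjamini-Hochberg adjusted p under 0.05, 46 of the 48 genes were lower at E16.5 and 0 were higher, while 34.6% of all genes tested were called lower and 45.5% higher. The median log2 fold change of the 48 genes was -1.67, against 0.31 over all genes tested, and 38 genes fell at least 2-fold, which 22.1% of all genes did. The 2 genes without a call were Gins4 and Prim2. Values of the 3 libraries at E16.5 lay below all 3 at E13.5 for 47 genes, against 35.7% of all genes. Log2 fold changes are on the scale of log2(normalized count + 1). A total of 41 genes were lower under all 4 ways of scaling the libraries that were tried. The exceptions besides Gins4 and Prim2 were Orc6, Gins3, Rfc4, Lig1 and Pole, which lost the call with equal library totals, Pole turning to a call in the other direction.

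From E16.5 to P0 the levels went lower again, less evenly and with more dependence on the scaling. Here 40 genes were called lower, 2 higher (Tk1 and Chaf1b) and 6 neither (Gmnn, Gins2, Pcna, Pold2, Pole2 and Fen1), against 33.4% of all genes lower and 27.6% higher. The median was -0.72, against -0.01 over all genes. With equal library totals the split was 22 lower and 11 higher, and the median was -0.05 against 0.68 over all genes. The 22 lower and the 2 higher genes were called so under all 4 scalings. By normalized counts, the P0 libraries are also those with the lowest germ cell marker sum and the highest mast cell marker sum. These sums carry the large P0 size factors and were not taken with equal library totals.

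Between P0 and P3 the transcripts came back. By limma 47 of the 48 genes were higher at P3, against 40.1% of all genes, and 44 rose at least 2-fold, against 24.7%. The median was 2.19, against 0.05 over all genes. The gene without a call was Pole. A total of 44 genes were higher under all 4 scalings, and Prim2, Pola1 and Rfc1 lost the call with equal library totals. A total of 45 genes were lower at E16.5 against E13.5 and higher at P3 against P0. The stages of these comparisons share no library, but the spread was estimated over all 12 libraries, so the calls are not independent. The share of all genes with both calls was not taken, nor that with the same call under all 4 scalings.

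The 2 comparisons within 1 genotype tag ran the same way. At P0 against E13.5, both tagged (+/-), 48 of 48 genes were lower, against 40.5% of all genes, with a median of -2.51. With equal library totals 45 were lower and 2, Prim2 and Pole, higher. At P3 against E16.5, both tagged (-/-), 44 genes were higher, against 34.2% of all genes, 1 was lower (Pole) and 3 were not called (Pola1, Prim2 and Lig1), while 35.2% of all genes were lower, and the median was 1.33. Gins4, Rfc4 and Rpa1 lost the call under at least 1 other scaling. The F-test over the 4 stages called 48 of 48 genes, and 95.2% of all genes. The mean was lowest at P0 for 45 genes and at E16.5 for 3 (Pold2, Tk1 and Chaf1b), and it was highest at E13.5 for 33 genes and at P3 for 15. With equal library totals it was lowest at P0 for 26 genes, at E16.5 for 19, at P3 for 2 (Pola1 and Pole) and at E13.5 for 1 (Prim2), and highest at P3 for 28, at E13.5 for 17, at E16.5 for 2 and at P0 for 1. No such tally was made over all genes.

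The share of a library's reads needs no size factor. Reads of the 48 genes made up 1.24% ± 0.0145 of an E13.5 library, 0.643% ± 0.0125 of an E16.5 library, 0.489% ± 0.0223 of a P0 library and 1.34% ± 0.0254 of a P3 library (mean ± SD, n = 3). No library of one stage overlapped one of another. The 6 helicase genes took 36.9% of these reads at E13.5, against 29.2% at E16.5 and 28.0% at P0, and 38.8% of them at P3. Their share of the set's reads was thus smaller at E16.5 and P0.

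**Figure D1:**
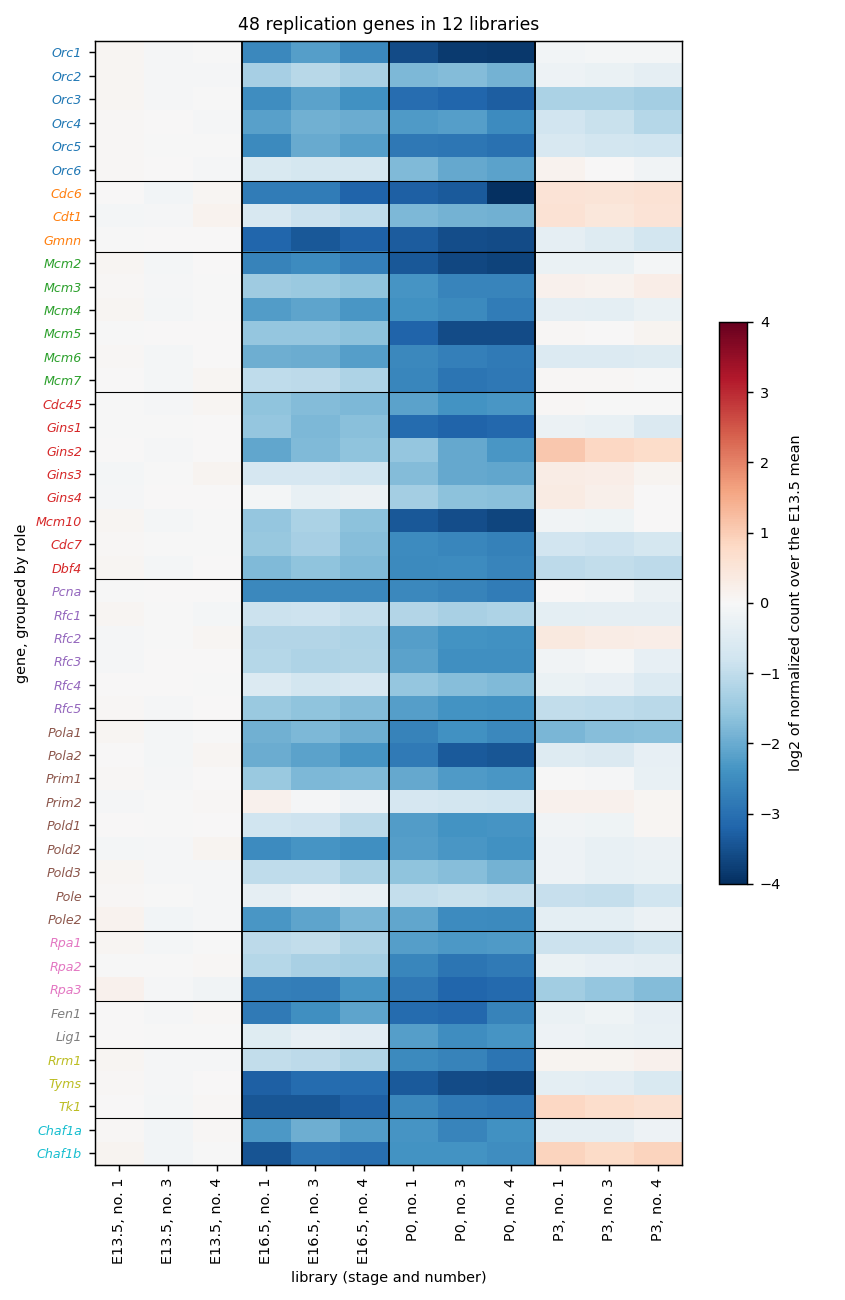
Each cell shows the log2 ratio of a gene's normalized count in 1 library to its mean at E13.5, for 48 genes in rows, grouped by role and coloured by it, and 12 libraries in columns, 3 per stage. Blue fills the E16.5 and P0 columns for 46 genes called lower at E16.5, while the P3 columns run from blue, as for Pola1 at -1.72 and Rpa3 at -1.55, to red, as for Gins2, Chaf1b and Tk1.

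**Figure D2:**
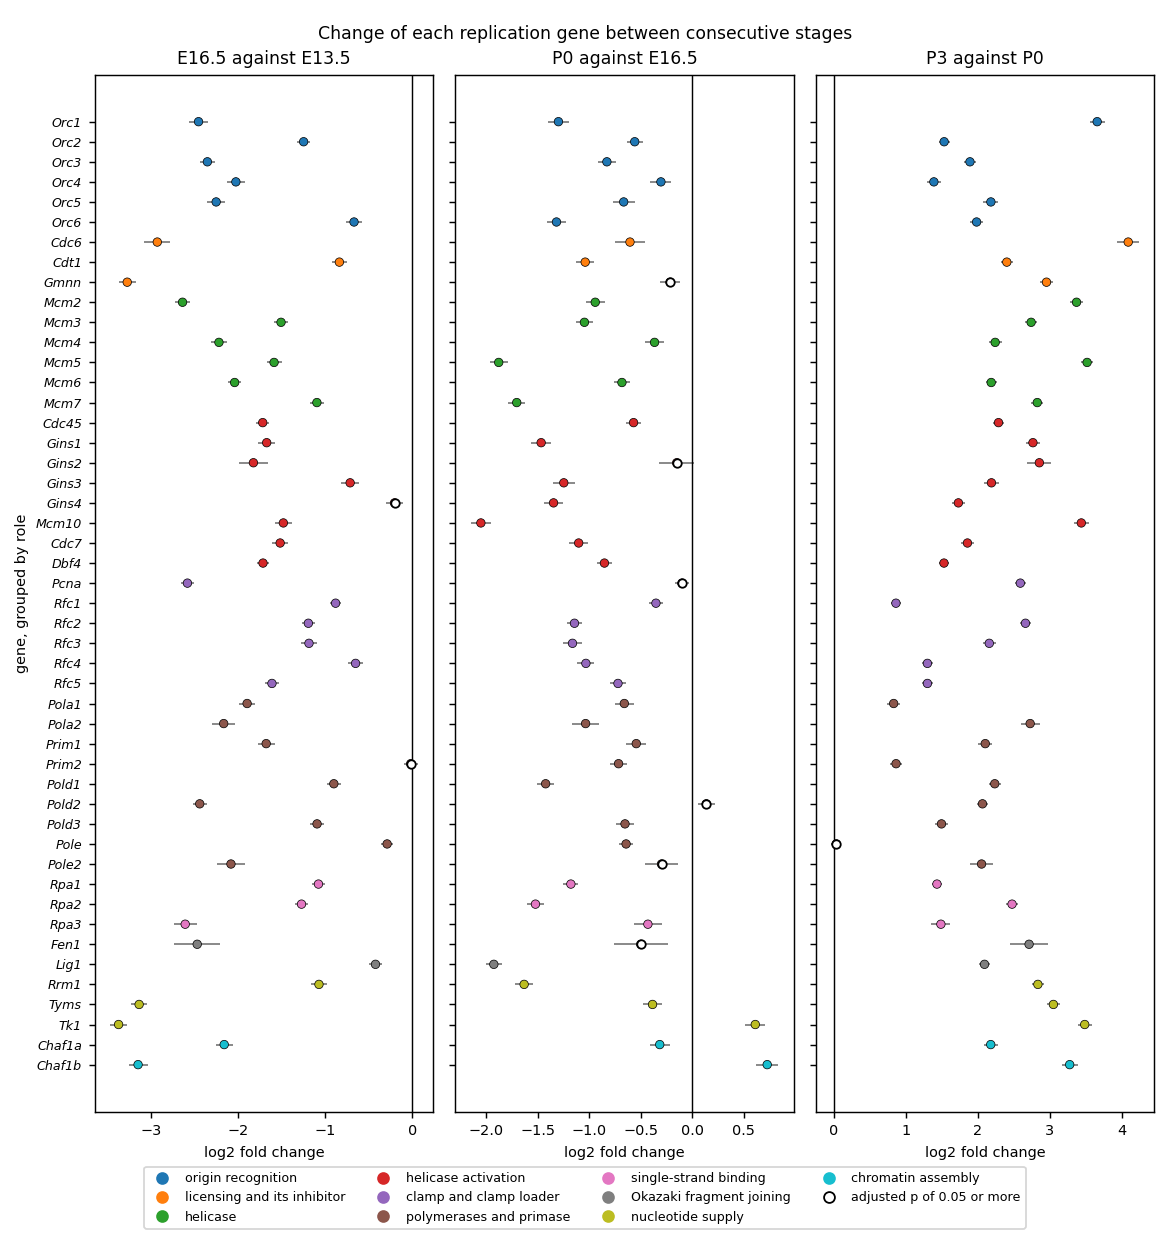
The log2 fold change of each of the 48 genes is plotted for 3 comparisons of consecutive stages, coloured by role, with bars of 1 standard error and open points for an adjusted p of 0.05 or more. Points lie left of 0 at E16.5 against E13.5, lie on both sides at P0 against E16.5, where Tk1 and Chaf1b are higher, and lie right of 0 at P3 against P0, Pole being closest to it.

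The origin recognition complex marks origins and stays on chromatin. All 6 of its genes fell at E16.5, with a median of -2.14, and all 6 rose at P3 against P0, with a median of 1.94. The largest fall was that of Orc1, the subunit known to be made and destroyed with the cell cycle, and the smallest that of Orc6, needed for MCM loading. Orc1 stood at 4237, 3839 and 3918 normalized counts in the E13.5 libraries 1, 3 and 4, at 676, 859 and 666 at E16.5, at 337, 279 and 275 at P0 and at 3708, 3750 and 3747 at P3. No E16.5 or P0 library came near the other stages. Its log2 fold change was -2.45 at E16.5 (SE 0.105, limma adjusted p = 1.57e-12), -1.30 at P0 against E16.5 (adjusted p = 1.57e-08) and 3.65 at P3 against P0 (adjusted p = 5.12e-14). Orc6 stood at 6831, 6722 and 6476 at E13.5, 4355, 4120 and 4135 at E16.5, 1953, 1609 and 1523 at P0 and 7333, 6713 and 6011 at P3. For Orc6 most of the loss came after E16.5: the change was -0.67 at E16.5 (limma adjusted p = 3.81e-06, not called with equal library totals) and -1.32 at P0 against E16.5 (adjusted p = 2.2e-09). Per kb of exon, Orc6 was the highest of the 6 at each stage, from 2704 normalized counts at E13.5 to 687 at P0, but per kb of the longest transcript Orc3 was higher at E13.5. The reads of Orc1 per read of Orc2 went from 0.635 ± 0.0025 at E13.5 to 0.275 ± 0.0194 at E16.5 and 0.165 ± 0.019 at P0, and stood at 0.718 ± 0.0398 at P3 (mean ± SD, n = 3), although 29.8% of the exon bases of Orc2 overlap Nif3l1 on the other strand.

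The licensing factors Cdc6 and Cdt1 and their inhibitor Gmnn parted from each other. All 3 fell at E16.5 and rose at P3, but Gmnn fell most and Cdt1 least. Gmnn stood at 8238, 8440 and 8380 at E13.5, 918, 789 and 889 at E16.5, 825, 718 and 694 at P0 and 6541, 5789 and 5052 at P3. Cdt1 stood at 9072, 9243 and 10475 at E13.5, 6124, 5292 and 4768 at E16.5, 2754, 2563 and 2522 at P0 and 14179, 13113 and 14138 at P3. E16.5 overlapped P0 for Gmnn and not for Cdt1, which was lowest at P0. The log2 fold change at E16.5 was -3.27 for Gmnn (SE 0.0965, limma adjusted p = 2.09e-14) and -0.84 for Cdt1 (SE 0.0871, adjusted p = 1.52e-07). At P0 against E16.5 it was -0.22 for Gmnn (adjusted p = 0.0639), which was called lower when any 1 of 4 single libraries was left out, was at 0.04 with median-of-ratios factors and was called higher at 0.45 with equal library totals, and -1.04 for Cdt1 (adjusted p = 2.52e-08).

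Within each library there were 1.10, 1.10 and 1.25 reads of Cdt1 per read of Gmnn at E13.5, and 6.67, 6.70 and 5.36 at E16.5. The same ratio was 3.34, 3.57 and 3.64 at P0, then 2.17, 2.27 and 2.80 at P3. The ratio does not depend on how libraries are scaled, and no 2 stages overlapped. Cdc6, the ATPase that recruits the helicase, stood at 3660, 3353 and 3799 at E13.5, 520, 514 and 394 at E16.5, 375, 349 and 228 at P0 and 5314, 5193 and 5348 at P3. It fell by 2.93 on the log2 scale at E16.5 (SE 0.15, limma adjusted p = 1.49e-11) and its rise of 4.09 at P3 against P0 (SE 0.15, adjusted p = 4.95e-13) was the largest of the set. At P0 against E16.5 Cdc6 was lower by the size factors of the table, at -0.60 (limma adjusted p = 0.00227), and at 0.06 with equal library totals.

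The helicase is a ring of Mcm2 to Mcm7. Each of its 6 genes fell at least 2-fold at E16.5, with a median of -1.81, was lower again at P0, with a median of -0.99 (with equal library totals Mcm4 was called higher and Mcm6 was not called, and with median-of-ratios factors Mcm4 was not called), and rose at P3 with a median of 2.78. Mcm2 fell most at E16.5 and Mcm7 least. Mcm2 stood at 48172, 43568 and 46284 at E13.5, 7233, 8020 and 6956 at E16.5, 4431, 3672 and 3499 at P0 and 37998, 37896 and 43615 at P3. Mcm7 stood at 36270, 34488 and 37788 at E13.5, 18030, 17524 and 15383 at E16.5, 5981, 4759 and 4943 at P0, then 37032, 37366 and 36141 at P3. The P0 libraries were the lowest for both, and for both P3 overlapped E13.5. The change of Mcm2 was -2.64 at E16.5 (SE 0.09, limma adjusted p = 1.15e-13) and -0.94 at P0 against E16.5 (adjusted p = 1.26e-07). For Mcm7 it was -1.09 (SE 0.0847, adjusted p = 3.39e-09) and then -1.70 (adjusted p = 4.51e-11), although 23.3% of its 50-base words also occur in other genes, most in Gm5487. Mcm5 showed the largest P0 loss among the 6, at -1.88 against E16.5 (limma adjusted p = 1.67e-11), and the largest rise at P3, at 3.52 (adjusted p = 1.19e-14). Mcm6, whose promoter holds several E2F words, rose least, at 2.19 (adjusted p = 3.88e-13). Mcm3 stood at 37613, 35675 and 36194 at E13.5, 13541, 13035 and 12014 at E16.5, 7120, 5831 and 5795 at P0 and 40695, 40240 and 43752 at P3. All P3 libraries of Mcm3 were above all E13.5 libraries. Per kb of exon the highest subunit stood 2.23 times above the lowest at E13.5, 3.60 times at E16.5, 3.92 times at P0 and 2.19 times at P3, so levels per length were less even in the middle stages. Measured per kb of the longest transcript, the ratio was 2.30 at P0, so this did not hold at P0 with that length.

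Of the 8 genes that turn the helicase on, 7 fell at E16.5, all but Gins4 (Gins3 not called with equal library totals), 7 were lower at P0, all but Gins2 (Cdc45 not called with equal library totals), and 8 rose at P3. Gins4, a subunit of the GINS complex, stood at 8698, 9170 and 9214 at E13.5, 8479, 7427 and 7663 at E16.5, 3549, 2911 and 2840 at P0, then 11277, 10445 and 9103 at P3. The E16.5 libraries lay just under those of E13.5, and the drop came at P0. Its log2 fold change was -0.20 at E16.5 (SE 0.0932, limma adjusted p = 0.0562) and -1.35 at P0 against E16.5 (adjusted p = 2.3e-09). Without the E16.5 library 1, the P0 library 1 or the P3 library 4, Gins4 was called lower at E16.5, and with equal library totals it was called higher, at 0.30. Gins2, another GINS subunit, fell most of the 8 at E16.5. It stood at 955, 911 and 946 at E13.5, 220, 274 and 306 at E16.5, 318, 228 and 185 at P0 and 1982, 1669 and 1551 at P3. E16.5 and P0 overlapped, and P3 was above all other stages. The change was -1.82 at E16.5 (SE 0.168, limma adjusted p = 3.29e-08), -0.15 at P0 against E16.5 (adjusted p = 0.453, but 0.11 with median-of-ratios factors, and called higher at 0.51 with equal library totals) and 2.85 at P3 against P0 (adjusted p = 1.4e-10). Of the exon bases of Gins2, 67.3% overlap Gse1 on the other strand, and the strand setting of the counting is not given in the sources used here. Mcm10, which helps start the active helicase, had the largest P0 loss of all 48 genes, at -2.05 against E16.5 (limma adjusted p = 3.61e-11), after -1.48 at E16.5 (adjusted p = 5.75e-10). Dbf4, the activator of the kinase Cdc7, rose least of the 8 at P3, at 1.53 (adjusted p = 5.83e-12). Per kb of exon Gins4 was the highest and Gins2 the lowest GINS subunit at each stage, 29.2 times apart at E13.5, 89.5 times at E16.5, 38.6 times at P0 and 18.0 times at P3.

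The clamp Pcna and the 5 subunits of the clamp loader RFC, which opens and closes it on DNA, all fell at E16.5 (Rfc4 not called with equal library totals) and all rose at P3 (Rfc1 not called with equal library totals). Pcna stood at 23700, 23981 and 23898 at E13.5, 4029, 3958 and 3976 at E16.5, 3994, 3767 and 3419 at P0 and 23926, 22907 and 20475 at P3. It formed 2 levels: E16.5 overlapped P0, and P3 overlapped E13.5. Pcna fell by 2.58 on the log2 scale at E16.5 (SE 0.0719, limma adjusted p = 1.22e-14), was at -0.10 at P0 against E16.5 (adjusted p = 0.238, and called higher at 0.56 with equal library totals) and rose by 2.59 at P3 (adjusted p = 4.02e-14). Of the 50-base words of Pcna, 19.1% also occur in other genes, most in the pseudogene Pcna-ps2. The loader fell less than the clamp. Rfc4 stood at 14360, 14386 and 14322 at E13.5, 9772, 8632 and 9084 at E16.5, 4917, 4361 and 4176 at P0 and 11917, 11424 and 9835 at P3, with no overlap between stages. Its change at E16.5 was -0.65 (SE 0.0815, limma adjusted p = 1.47e-06). Rfc2 stood at 9969, 10190 and 10944 at E13.5, 4627, 4573 and 4405 at E16.5, 2273, 1964 and 1936 at P0 and 13585, 12791 and 12593 at P3, where every library was above E13.5. Rfc1, the large subunit, rose by 0.86 at P3 (limma adjusted p = 4.59e-09), against 2.66 for Rfc2 (adjusted p = 3.71e-14).

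Of the 9 polymerase and primase genes, 8 fell at E16.5, all but Prim2 (Pole not lower with 2 of the 4 scalings), and 8 rose at P3 against P0, all but Pole (Pola1 and Prim2 not called with equal library totals). Pold2, a subunit of the lagging-strand polymerase delta, fell most at E16.5. It stood at 5824, 6001 and 6716 at E13.5, 1070, 1206 and 1137 at E16.5, 1351, 1239 and 1163 at P0 and 5413, 5046 and 5223 at P3. E16.5 and P0 overlapped and were far under the other stages. The change was -2.44 at E16.5 (SE 0.0807, limma adjusted p = 7.86e-14), 0.14 at P0 against E16.5 (adjusted p = 0.157, and called higher under the other 3 scalings) and 2.06 at P3 (adjusted p = 9.81e-13). Prim2, the regulatory subunit of primase, stood at 5493, 5564 and 5785 at E13.5, 6344, 5471 and 4925 at E16.5, 3543, 3347 and 3256 at P0 and 6335, 6278 and 5878 at P3. It was the one gene of the set whose E16.5 libraries lay on both sides of those at E13.5. Its change was -0.02 at E16.5 (SE 0.082, limma adjusted p = 0.861, and called higher at 0.21 with median-of-ratios factors and 0.49 with equal totals) and -0.72 at P0 against E16.5 (adjusted p = 1.11e-06, not called with equal totals). Its catalytic partner Prim1 moved otherwise: the reads of Prim2 per read of Prim1 were 0.451, 0.486 and 0.489 at E13.5, 1.51, 1.59 and 1.41 at E16.5, 1.23, 1.38 and 1.40 at P0 and 0.541, 0.552 and 0.607 at P3.

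Pole and Pola1 encode the catalytic subunits of polymerase epsilon and polymerase alpha. Both were called lower at P3 than at E13.5 under all 4 scalings. Pole stood at 4334, 4163 and 4093 at E13.5, 3252, 3651 and 3423 at E16.5, 2165, 2269 and 2175 at P0 and 2231, 2148 and 2404 at P3. By normalized counts it stepped down to P0, and its P3 libraries overlapped those of P0. Its change was -0.29 at E16.5 (SE 0.0708, limma adjusted p = 0.0014), -0.64 at P0 against E16.5 (adjusted p = 7e-07, not called with equal library totals), 0.04 at P3 against P0 (adjusted p = 0.652) and -0.61 at P3 against E16.5 (adjusted p = 9.37e-07). With equal library totals Pole was called higher than at E13.5 both at E16.5, at 0.22, and at P0, at 0.24. With median-of-ratios factors and equal totals Pole was called lower at P3 against P0, at -0.40 and -0.80. Pola1, described because its P3 level was seen to be low, stood at 3807, 3447 and 3551 at E13.5, 948, 1034 and 922 at E16.5, 563, 670 and 606 at P0 and 1017, 1117 and 1140 at P3. Its P3 libraries were above P0 but reached only 30.3% of the E13.5 mean, where P3 overlapped E16.5. The change of Pola1 was 0.83 at P3 against P0 (SE 0.0892, limma adjusted p = 2.66e-07, and -0.01 with equal library totals) and 0.17 at P3 against E16.5 (adjusted p = 0.0949).

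The accessory subunits Pole2 and Pola2 rose from P0 to P3, at 2.05 and 2.73. Pola2 was still below E13.5, at -0.47 (limma adjusted p = 0.00457, not called with equal library totals), and Pole2 was at -0.33 without a call. The reads of Pole per read of Pole2 were 5.99, 6.76 and 6.37 at E13.5, 24.9, 23.9 and 18.3 at E16.5, 14.0, 19.8 and 19.3 at P0 and 4.38, 4.22 and 4.30 at P3. Each P3 library was below each E13.5 library. The reads of Pola1 per read of Pola2 were 0.643, 0.623 and 0.573 at E13.5, 0.636, 0.782 and 0.807 at E16.5, 0.681, 1.17 and 1.10 at P0, then 0.249, 0.283 and 0.242 at P3. The P3 ratio was under all 9 other libraries, while E13.5 and E16.5 overlapped. Pole2 had few reads next to most of the set, at 660 ± 55.8 normalized counts at E13.5 and 127 ± 23.7 at P0 (SD, n = 3).

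**Figure D3:**
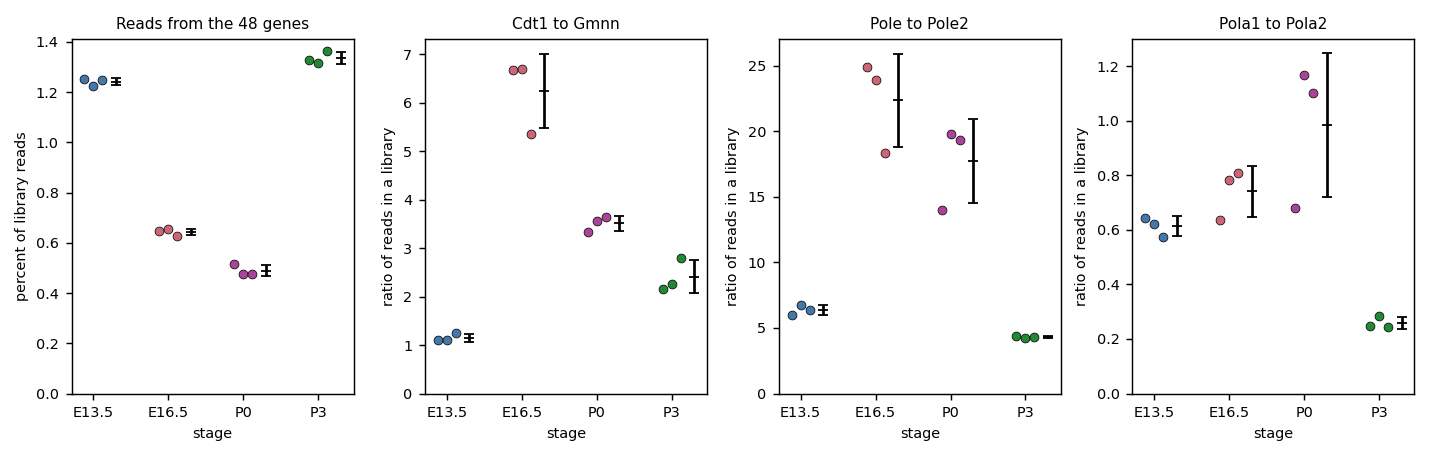
The left panel plots the percent of each library's reads that fell in the 48 genes, and the other panels plot within-library ratios of reads for Cdt1 to Gmnn, Pole to Pole2 and Pola1 to Pola2, by stage, with points for 12 libraries and bars for the mean and SD (n = 3). The share dips from 1.24% to 0.489% at P0 and returns to 1.34%, Cdt1 to Gmnn peaks at E16.5 at 6.25, and Pola1 to Pola2 is lowest at P3 at 0.258.

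The RPA complex coats single-stranded DNA. All 3 genes fell at E16.5 and rose at P3. Rpa3, the smallest subunit, stood at 3198, 2774 and 2606 at E13.5, 432, 422 and 558 at E16.5, 397, 320 and 327 at P0 and 1102, 977 and 854 at P3. Its P3 libraries were above P0 and under E13.5 without overlap. Rpa1, the large subunit, stood at 30733, 27589 and 28543 at E13.5, 14154, 14576 and 12523 at E16.5, 6257, 5884 and 6056 at P0 and 15940, 15842 and 17388 at P3. At E16.5 the change was -2.61 for Rpa3 (SE 0.132, limma adjusted p = 1.32e-11) and -1.08 for Rpa1 (SE 0.0721, adjusted p = 5.1e-10). At P0 against E16.5 it was -1.18 for Rpa1 (adjusted p = 5.17e-10) and -0.43 for Rpa3 (adjusted p = 0.00977, not called under the other 3 scalings, and 0.23 with equal library totals). At P3 against P0 it was 1.49 for Rpa3 (adjusted p = 2.52e-08), 1.43 for Rpa1 (adjusted p = 1.91e-11) and 2.47 for Rpa2 (adjusted p = 1.3e-13). Per kb of exon the order was Rpa2, Rpa1, Rpa3 at each stage, and the highest stood 6.26, 15.8, 7.46 and 14.7 times above the lowest at E13.5, E16.5, P0 and P3.

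Fen1 trims and Lig1 seals the fragments of the lagging strand, and they lost their transcripts at different times. Lig1 stood at 18177, 17608 and 17761 at E13.5, 12771, 14346 and 12933 at E16.5, 3888, 3223 and 3448 at P0 and 15636, 14866 and 14429 at P3. It was lower at each stage up to P0 without overlap between stages. Its change was -0.42 at E16.5 (SE 0.0745, limma adjusted p = 6.71e-05, and 0.09 without a call with equal library totals), -1.93 at P0 against E16.5 (adjusted p = 3.18e-12) and 2.09 at P3 against P0 (adjusted p = 3.56e-13). Lig1 at P3 against E16.5 was at 0.17 (adjusted p = 0.056), and it was called without the E16.5 library 3, the P0 library 1 or the P0 library 3. The reads of Lig1 per read of Mcm2 went from 0.388 ± 0.014 at E13.5 to 1.80 ± 0.0488 at E16.5 and 0.913 ± 0.0623 at P0, and stood at 0.378 ± 0.0421 at P3 (mean ± SD, n = 3). Fen1 was listed at only 149, 143 and 153 at E13.5, 20.0, 26.0 and 33.2 at E16.5, 16.7, 15.8 and 22.2 at P0 and 123, 132 and 116 at P3. It fell by 2.47 at E16.5 (SE 0.263, limma adjusted p = 1.97e-07) and rose by 2.71 at P3 (adjusted p = 7.63e-08). The level of Fen1 is uncertain, because 84.2% of its exon bases overlap Gm10143 on the other strand and 76.7% of its 50-base words occur in other genes.

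The nucleotide enzymes fell in an uneven way. Tk1, thymidine kinase, whose protein is known to follow S phase, had the largest fall of the 48 genes at E16.5. It stood at 2943, 2780 and 3048 at E13.5, 270, 272 and 304 at E16.5, 492, 415 and 390 at P0 and 5205, 4782 and 4498 at P3. Every P0 library was above every E16.5 library, and every P3 library above every E13.5 library. The change was -3.37 at E16.5 (SE 0.0986, limma adjusted p = 1.94e-14), 0.61 at P0 against E16.5 (adjusted p = 4.87e-05) and 3.48 at P3 against P0 (adjusted p = 5.02e-14). Rrm1, the large subunit of ribonucleotide reductase, fell least of the 3 at E16.5. It stood at 24606, 22460 and 22130 at E13.5, 11710, 11283 and 10002 at E16.5, 3984, 3639 and 3063 at P0 and 25067, 24775 and 25871 at P3. Its change was -1.07 at E16.5 (SE 0.0886, limma adjusted p = 8.09e-09) and -1.63 at P0 against E16.5 (adjusted p = 1.25e-10). Tyms, thymidylate synthase, kept 11.4% of its E13.5 mean at E16.5 and 8.73% at P0. Between those stages it was called lower at -0.39, was not called with median-of-ratios factors and was called higher at 0.28 with equal library totals. The reads of Tk1 per read of Tyms were 0.386 ± 0.0138, 0.327 ± 0.0212, 0.653 ± 0.0159 and 0.884 ± 0.0263 at E13.5, E16.5, P0 and P3 (SD, n = 3).

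Chaf1a and Chaf1b encode subunits of the factor that places histones on new DNA. Both fell at E16.5 and both rose at P3, but they parted at P0. Chaf1b stood at 4562, 3860 and 4172 at E13.5, 381, 537 and 513 at E16.5, 794, 796 and 754 at P0 and 7744, 7194 and 7772 at P3. As for Tk1, no P0 library was as low as E16.5, and P3 was above E13.5. Chaf1a stood at 5722, 5093 and 5632 at E13.5, 1115, 1422 and 1162 at E16.5, 1067, 883 and 1013 at P0, then 4316, 4317 and 4765 at P3. The change of Chaf1b was -3.15 at E16.5 (SE 0.109, limma adjusted p = 1.37e-13), 0.73 at P0 against E16.5 (adjusted p = 2.29e-05) and 3.27 at P3 against P0 (adjusted p = 1.91e-13). For Chaf1a it was -2.16 (SE 0.0984, adjusted p = 3.47e-12), then -0.32 (adjusted p = 0.0108, not called with TMM or median-of-ratios factors, and called higher at 0.35 with equal library totals), then 2.18 (adjusted p = 5.16e-12). There were 0.797, 0.758 and 0.741 reads of Chaf1b per read of Chaf1a at E13.5, 0.342, 0.378 and 0.441 at E16.5, 0.744, 0.902 and 0.745 at P0 and 1.79, 1.67 and 1.63 at P3. Of the exon bases of Chaf1a, 52.5% overlap Ubxn6 on the other strand.

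The return at P3 was not to the E13.5 pattern. At P3 against E13.5, 7 genes were called higher, 25 lower and 16 neither, against 39.2% of all genes higher and 31.2% lower, and the median was -0.25, against 0.16 over all genes. With equal library totals the split was 20 higher and 12 lower, and the median 0.08, against 0.47 over all genes. The 7 higher genes were called so under all 4 scalings: Gins2 at 0.88, Chaf1b at 0.85, Tk1 at 0.72, Cdc6 at 0.55, Cdt1 at 0.53, Rfc2 at 0.33 and Mcm3 at 0.19. The call of Mcm3 (limma adjusted p = 0.0472) was lost without any 1 of 7 libraries. A set of 12 genes was lower under all 4 scalings, led by Pola1 at -1.72, Rpa3 at -1.55, Orc3 at -1.29, Dbf4 at -1.03 and Rfc5 at -1.03. In each of these 5 genes the limma adjusted p was at most 1.81e-08. Gmnn was lower, at -0.54 (adjusted p = 0.000103), while Cdt1, which it inhibits, was among the higher genes. Mcm2 at -0.21 (adjusted p = 0.0474) lost its call without any 1 of 6 libraries. Cdc45 at 0.00, Orc6 at -0.00 (limma adjusted p = 0.998), Mcm7 at 0.03 (adjusted p = 0.794) and Mcm5 at 0.05 (adjusted p = 0.609) were closest to their E13.5 level, and with equal library totals each was called higher.

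**Figure D4:**
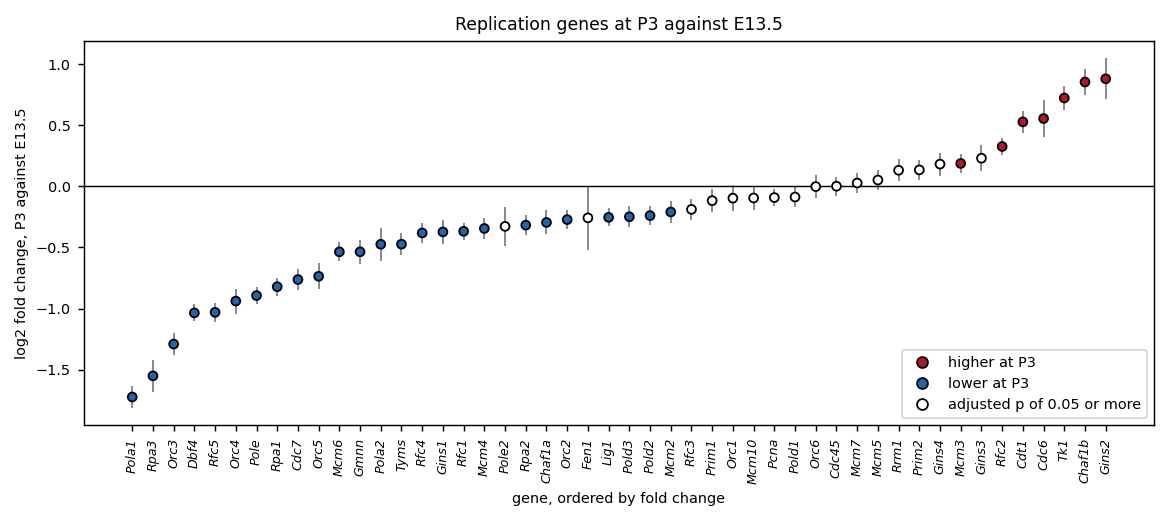
The log2 fold change at P3 against E13.5 is plotted for the 48 genes in order, with bars of 1 standard error, blue for genes called lower, red for genes called higher and open points for the rest. The left end is Pola1 at -1.72 and Rpa3 at -1.55, the right end Chaf1b at 0.85 and Gins2 at 0.88.

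Another 43 genes of replication, from fork protection to nucleotide supply and histone handling, were read beside the 48, and 42 of them were tested. At E16.5 against E13.5, 39 of the 42 were lower, 1 higher and 2 not called, against 34.6% of all genes lower and 45.5% higher. The median was -1.68, against 0.31 over all genes. At P0 against E16.5, 25 were lower, 3 higher and 14 not called, against 33.4% of all genes lower and 27.6% higher. At P3 against P0, 41 were higher and 1 not called, against 40.1% of all genes higher. The median there was 1.98, against 0.05 over all genes. Counts under the other scalings are not given for this list, and at P0 against E16.5 they may differ. The largest fall at E16.5 was that of Dtymk, thymidylate kinase, at -3.66, and Dna2, a nuclease of fragment processing, fell by 3.64. Dtymk stood at 7593, 7224 and 7157 at E13.5 and at 503, 590 and 653 at E16.5. The gene called higher was Chtf8, at only 2.11 to 6.31 normalized counts at E13.5 and 9.5 to 17.2 at E16.5. Its level is uncertain, because 91.8% of its exon bases overlap other exons on the same strand, most in a second Chtf8 entry. That second entry is listed at 0 in all 12 libraries. Pold4 and Recql4 were not called, at -0.06 and 0.23. The largest rise at P3 was that of Uhrf1, which guides maintenance DNA methylation to newly copied DNA, at 4.53 (limma adjusted p = 5.14e-15). Uhrf1 stood at 7929, 7142 and 7972 at E13.5, 1898, 2075 and 1915 at E16.5, 1603, 1329 and 1197 at P0 and 30251, 30377 and 34050 at P3. Its P3 level was above that of E13.5, at 2.04, which was the highest value in both lists. Rrm2, the small subunit of ribonucleotide reductase, is listed at 0 in all 12 libraries. A value of 0 cannot tell a silent gene from one that the counting missed, and the cause was not tested.

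Genes of the dividing cell give a reference. Mki67, a mark of cycling cells, stood at 1515 to 1831 normalized counts at E13.5, 128 to 219 at E16.5, 190 to 228 at P0 and 1889 to 2374 at P3. The cyclin Ccna2 averaged 20198 at E13.5, but 2653 at E16.5 and 1138 at P0, and 19567 at P3. E2f1, whose protein drives many replication genes, had means of 8776, 4346, 2179 and 10305. The inhibitor Cdkn1c had means of 3363, 1873, 6098 and 1414, with its highest level at P0. Of the other reference genes, Ccnb1 and Cdk1 had their lowest means at P0, at 3129 and 797 normalized counts. The cyclins Ccne1 and Ccne2 were lowest at E16.5, with means of 306 and 466, against 468 and 675 at P0. The inhibitor Cdkn1b had its highest mean at P0, at 158, and Cdkn2b at E16.5, at 674. All these reference levels carry the large P0 size factors and are not given with equal library totals. With such totals the stage of a lowest or highest mean may differ.

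**Figure D5:**
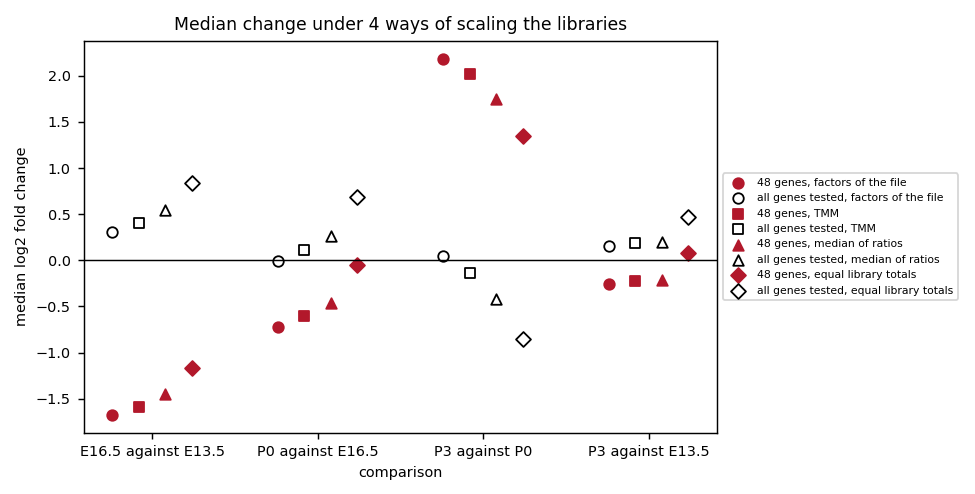
The median log2 fold change of the 48 genes (filled) and of all genes tested (open) is plotted for 4 comparisons under 4 ways of scaling the libraries. The filled median at P0 against E16.5 runs from -0.72 to -0.05 and at P3 against E13.5 from -0.25 to 0.08, and the open median shifts by nearly the same amount.

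Scaling moved the whole table together. Over the 4 scalings the median of all genes at P0 against E16.5 ranged from -0.01 to 0.68, and at P3 against P0 from 0.05 to -0.86. The median of the 48 genes minus that of all genes lay between -1.98 and -2.00 at E16.5 against E13.5, and ranged from -0.71 to -0.74 at P0 against E16.5, from 2.14 to 2.20 at P3 against P0 and from -0.39 to -0.42 at P3 against E13.5. A scaling adds nearly the same amount to every gene, so these differences are nearly fixed by construction and do not bear on which scaling fits.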

How the data were processed

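Per the labels' protocols, cDNA came from the SMART-seq v4 kit, and the TruSeq mRNA kit gave the libraries, without molecular identifiers named. The submitters' processing notes name bcl2fastq 2.20, cutadapt 1.18, HISAT2 2.1.0, featureCounts 1.5.2, DESeq2 1.26.0 and the builds mm10 and GRCm38. Strand setting and the handling of reads that match several genes are not given in the sources used here. The authors deposited 1 table of a signal per gene and library, which is its read count over a library-wide size factor, the normalized count of the report. The reads behind the deposited signal could be recovered: 100% of values in each library came out whole within a tolerance of 0.001. All 12 columns were used, each assigned to its stage only. Symbols matched 55141 of 55487 identifiers (99.4%), and exons and lengths came from GENCODE M21 on GRCm38.

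The test used limma 3.58.1 (R 4.3.3, trended eBayes, 8 residual degrees of freedom) on log2(normalized count + 1) of 22384 genes over all 12 libraries, with Benjamini-Hochberg adjustment over all of them and a threshold of 0.05. Alternatives were TMM, median-of-ratios and equal-total scaling, pseudocounts of 0.1 and 10, the table unfiltered, genes whose mean reached 100, calls that were also 2-fold, edgeR 4.0.16 and DESeq2 1.42.0 on the recovered reads, a fit of the compared stages only, and leaving out each library. Read overlap was measured as 50-base words of a gene's transcripts found in other genes, and as exon bases shared with other genes. The methods were tested on simulated data in which chosen genes were raised at P0 only and all others were unchanged. That test used the size factors of the table, so it does not bear on the choice of scaling. Python 3.11.15 with pandas 2.3.3, numpy 2.4.6, scipy 1.17.1 and matplotlib 3.10.9 did the rest.

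The members and lists were chosen with earlier results of these data known. Values in every library are given for the genes with the largest and the smallest change at E16.5 in each role, for genes not called lower at E16.5 or not called higher at P3 against P0, and for genes called against the direction of most. Pola1 was added after its values were seen. One of the marker lists is not reported here.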

Additional observations from a re-analysis of the deposited data

How the results depend on the processing

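No paired analysis was possible because column names end in 1, 3 and 4, and these are not the replicate numbers 1, 2 and 3 of the titles. Of the 7 counts of genes called, 2 moved by over 1.5 times, both when calls also had to be 2-fold: 42 became 20 at P0 against E16.5, and 32 became 5 at P3 against E13.5. Median log2 fold changes with TMM, median-of-ratios and equal totals moved to -1.45 (median-of-ratios) and -1.17 (equal totals) at E16.5 against E13.5, to -0.60, -0.46 and -0.0549 at P0 against E16.5, and to 2.02, 1.75 and 1.35 at P3 against P0. At P3 against E13.5 the median turned to 0.0773 with equal totals, where that over all genes was 0.466. Leaving out 1 library at a time gave medians of -1.69 to -1.62, -0.79 to -0.68, 2.14 to 2.27 and -0.27 to -0.24 in these 4 comparisons. It gave counts of 46 to 47, 41 to 44, 47 to 47 and 28 to 34, and of 48 to 48 at P0 against E13.5, 45 to 46 at P3 against E16.5 and 48 to 48 over the 4 stages. It changed the call of 1, 6, 0 and 8 genes in these 4 comparisons.

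With equal library totals, 4, 16, 2 and 13 of the 48 genes changed sign in these 4 comparisons with a call on at least 1 side, and Prim2 and Pole each did so in 1 comparison with median-of-ratios factors. At P0 against E16.5, Chaf1a, Mcm4, Orc4, Rfc1 and Tyms went from a call lower to a call higher. The genes named next are only those whose change in the same comparison is printed above. They turned under equal totals unless another scaling is named. At E16.5 against E13.5 these were Gins4 at 0.30, Prim2 at 0.21 (median-of-ratios) and 0.49, Pole at 0.22 and Lig1 at 0.0854. At P0 against E16.5 they were Cdc6 at 0.0571, Gmnn at 0.45, Gins2 at 0.51, Pcna at 0.56, Pole at 0.0209, Rpa3 at 0.23, Tyms at 0.28 and Chaf1a at 0.35. At P3 against P0 they were Pola1 at -0.0074 and Pole at -0.40 (median-of-ratios) and -0.80, and at P3 against E13.5 Mcm2 at 0.12 and Orc6 at 0.33. Beyond the change of scaling itself, the cause was not tested. Of 48 levels per kb of exon at E13.5, 45 moved by more than their SD with the length of the longest transcript. Fen1, with 26.4 normalized counts at E16.5 and 18.2 at P0, had the lowest levels of the 48 genes, so depth limits its precision most.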
